A study of Mus musculus with 4 samples.

Results

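The genes described here move fatty acids into the cell and oxidize them. They were listed by name: 33 genes for uptake, storage, activation, transfer into mitochondria, mitochondrial and peroxisomal β-oxidation, and the regulators *Ppara* and *Ppargc1a*. No measured value was used as a rule for the list, but it was chosen with earlier results of these data known. All 33 were among the 25239 genes in the count tables, and 31 had enough counts to be tested, among 13919 tested genes in all.

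The counts came from RNA-Seq of CD4+ T cells that had infiltrated lung tumors of C57BL/6 mice, with 2 libraries for each of the labels WT and CD4/ALK4-KO. Tumors were grown from 500000 cells of LLC-OVA, an ovalbumin-expressing line of Lewis lung carcinoma, given intravenously to mice of both genotypes, and were excised on days 18 to 22 by the sample labels, while the methods of the study give a range of days that starts and ends earlier. CD4/ALK4-KO mice were CD4CreERT2+/-/Acvr1b fl/fl: tamoxifen activates a Cre recombinase driven by the *Cd4* promoter, which deletes a floxed part of *Acvr1b*, the gene of the activin receptor ALK4, in cells that use this promoter. Cells were taken from the interface of a density gradient with a CD4+ T cell isolation kit, so that a library can also hold RNA of other tumor cells, and the sources used here do not state whether animals were pooled.

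Fatty acids are taken up with the help of CD36, carried in the cytosol by fatty acid binding proteins, coupled to coenzyme A by acyl-CoA synthetases, and either stored in lipid droplets or passed to mitochondria by the carnitine shuttle. There each turn of β-oxidation runs through an acyl-CoA dehydrogenase, an enoyl-CoA hydratase, a hydroxyacyl-CoA dehydrogenase and a thiolase, while electrons leave through the electron transfer flavoprotein. Very long and branched chains are shortened in peroxisomes. In T cells, oxidation of fatty acids is best known from regulatory and memory cells, and CD36 and fatty acid binding proteins are also prominent in macrophages.

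Total counts ran from 11823908 to 13943237 per library. The targeted gene *Acvr1b* had counts of 426 and 342 under the WT label against 322 and 445 under the CD4/ALK4-KO label, with a log2 fold change of 0.16 (SE 0.24, adjusted p = 0.66). The counts cover the whole gene, deleted part included, and did not separate the genotypes, so directions below are those of the libraries as labelled. The libraries also differed in T cell genes: the summed level of 16 T cell markers, led by *Cd3g* and *Lck*, was 498 to 534 CPM (counts scaled to a common library size) in WT and 2704 to 2812 CPM in CD4/ALK4-KO, and all 16 rose. Lower counts of a gene may mean fewer cells of a type that expresses it or less RNA per cell, and these cannot be told apart in such libraries.

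Between CD4/ALK4-KO and WT, 7 of the 31 tested members were lower and 3 were higher at an adjusted p under 0.05. The members that fell were *Cd36*, *Fabp4*, *Fabp5*, *Plin2*, *Acsl3*, *Echs1* and *Decr1*, and those that rose were *Lpl*, *Acox3* and *Ehhadh*. Among all 13919 tested genes, 15.4% were lower and 17.4% were higher, against 22.6% and 9.68% of the members. Calls were thus common among all genes, and whether the members' shares differ from these was not tested. The members' median log2 fold change was -0.31, with 23 below 0 and 8 above, beside a median of -0.0082 over all genes tested. The CPM of the 2 genotypes did not overlap, with CD4/ALK4-KO lower, for 18 members and, with CD4/ALK4-KO higher, for 6, against 34.0% and 32.7% of all genes tested.

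The count of calls depended on the scaling and on single libraries. With upper quartile scaling 10 members were lower and 2 higher. When libraries were scaled to 4 T cell receptor complex genes (*Cd3d*, *Cd3e*, *Cd3g* and *Cd247*), the median over all genes moved to -2.19 and all 31 members were lower, as were 12803 of all tested genes, with 48 higher. Relative to the shifted median, the members' median was -0.30 on both scales, as a scaling moves all genes alike. The number of members that fell was 1 without WT replicate 1, 2 without WT replicate 2, 11 when CD4/ALK4-KO replicate 1 was left out and 8 when its replicate 2 was. *Fabp4* and *Acox3* were the 2 of the 10 called members that passed with each of the 4 libraries left out in turn.

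**Figure D1:**
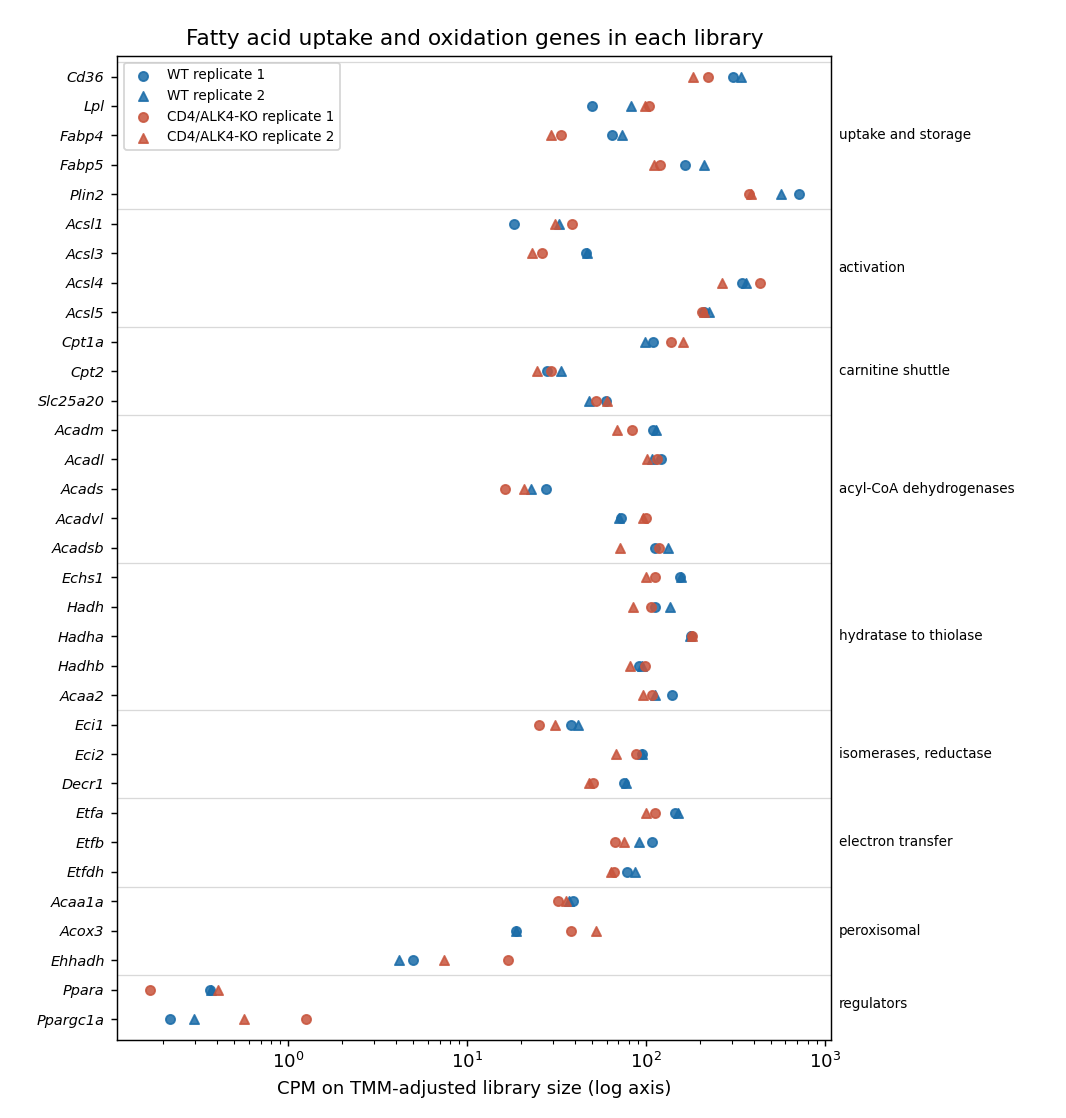
CPM of the 33 members in each of the 4 libraries on a log axis, grouped by role, with circles and triangles for replicates 1 and 2 of each genotype. The uptake and storage genes *Cd36*, *Fabp4*, *Fabp5* and *Plin2* sit lower in both CD4/ALK4-KO libraries, and *Acox3* and *Ehhadh* sit higher on this scale.

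Of the 5 uptake and storage genes, 4 fell and 1 rose. *Plin2*, which coats lipid droplets, had the most counts of all members, with 9790 and 7624 in WT and 4460 and 4768 in CD4/ALK4-KO. Its level was 639 ± 107 CPM in WT and 380 ± 8.13 CPM in CD4/ALK4-KO (SD, n = 2), a log2 fold change of -0.75 (SE 0.22, adjusted p = 0.010). Both CD4/ALK4-KO libraries lay below both WT libraries, which themselves stood apart. Without WT replicate 1, the higher of them, the log2 fold change was -0.57 (adjusted p = 0.32).

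*Cd36*, the scavenger receptor that takes up long-chain fatty acids and oxidized lipoproteins, had 4193 and 4591 counts in WT and 2626 and 2260 in CD4/ALK4-KO. Its level was 323 ± 23.6 CPM in WT and 202 ± 26.6 CPM in CD4/ALK4-KO, for a log2 fold change of -0.68 (SE 0.22, adjusted p = 0.021). The groups did not overlap, but the call was lost without either WT library.

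The fatty acid binding proteins lie close together on chromosome 3, *Fabp5* at 10012548 to 10016607 on the plus strand and *Fabp4* at 10204088 to 10208576 on the minus strand (GRCm38). *Fabp4*, the binding protein of adipocytes and macrophages, had 877 and 994 counts in WT and 398 and 364 in CD4/ALK4-KO, or 68.7 ± 6.71 and 31.5 ± 2.80 CPM. It was 2.18-fold lower in CD4/ALK4-KO, with a log2 fold change of -1.13 (SE 0.22, adjusted p = 0.00046), and passed without any one library. *Fabp5*, the binding protein of epidermis and immune cells, had 2257 and 2828 counts in WT and 1430 and 1359 in CD4/ALK4-KO, for a log2 fold change of -0.70 (SE 0.22, adjusted p = 0.016) that was no longer called without either WT library. Within each library the ratio of *Fabp4* to *Fabp5* counts was 0.35 to 0.39 in WT and 0.27 to 0.28 in CD4/ALK4-KO. Both fell, and *Fabp4* lost a larger share of its counts, a difference that was not tested.

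*Lpl*, the lipase that frees fatty acids from lipoproteins, had 680 and 1109 counts in WT and 1236 and 1220 in CD4/ALK4-KO. Its level was 65.8 ± 22.9 CPM in WT and 101 ± 3.55 CPM in CD4/ALK4-KO, for a log2 fold change of 0.62 (SE 0.24, adjusted p = 0.045) that was -1.57 with T cell receptor scaling. The rise rested on WT replicate 1, the lowest library, without which the log2 fold change was 0.30 (adjusted p = 0.65), whereas without WT replicate 2 it was 1.02. Relative to *Cd36* in the same library, *Lpl* counts were 0.16 and 0.24 in WT and 0.47 and 0.54 in CD4/ALK4-KO, a ratio that does not depend on the scaling.

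Markers of other cells moved beside the uptake genes, and their part in the results was not tested. The summed level of 12 macrophage markers, led by *Apoe* and *Msr1*, was 2504 to 3499 CPM in WT and 2391 to 2620 CPM in CD4/ALK4-KO, with 1 lower and 1 higher. For 8 alveolar macrophage markers, led by *Chil3* and *Marco*, the range was 787 to 920 CPM in WT and 468 to 600 CPM in CD4/ALK4-KO, with 2 lower and 1 higher. Fibroblast markers, led by *Col3a1* and *Dcn*, summed to 8923 to 9257 CPM in WT and 6250 to 6734 CPM in CD4/ALK4-KO, with 5 of 10 lower and none higher. For epithelial markers, led by *Scgb1a1* and *Krt18*, the sums were 890 to 899 CPM in WT and 436 to 583 CPM in CD4/ALK4-KO, with 5 of the 8 tested lower and 2 higher.

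Adipocyte markers, led by *Cfd* and *Adipoq*, summed to 0.51 to 1.68 CPM over the 4 libraries. *Lep* and *Pck1* were at 0 in all of them, so adipocyte transcripts were near absent in these libraries. The other lists were higher or mixed. B cell markers, led by *Cd79b* and *Ms4a1*, rose in 8 of 8, from 64.5 to 73.8 CPM in WT to 220 to 408 CPM in CD4/ALK4-KO. Neutrophil markers, led by *S100a9* and *S100a8*, overlapped between genotypes at 956 to 1466 and 971 to 1558 CPM, with 3 of 8 higher. Dendritic cell markers, led by *Ccr9* and *Clec9a*, summed to 89.0 to 89.1 CPM in WT and 119 to 267 CPM in CD4/ALK4-KO, with 3 of 8 higher and 1 lower. Endothelial markers, led by *Pecam1* and *Kdr*, summed to 72.1 to 84.7 CPM in WT and 129 to 146 CPM in CD4/ALK4-KO, with 1 of 8 higher and 2 lower. The higher sum came from *Pecam1*, at 22.5 and 42.7 CPM in WT and 106 and 108 CPM in CD4/ALK4-KO, without which the 7 others summed to 42.1 to 49.5 CPM in WT and 22.4 to 37.6 CPM in CD4/ALK4-KO. Leaving out *Pecam1* was not a planned step, and the sum of the full endothelial list was higher in CD4/ALK4-KO. The sums of the epithelial, alveolar macrophage and fibroblast lists were lower in CD4/ALK4-KO, as were the members that fell. Single markers in these lists went the other way. *Epcam* (log2 fold change 2.31, adjusted p = 0.0022), *Cdh1* (1.77, adjusted p = 0.00011) and *Siglecf* (1.07, adjusted p = 0.047) rose. Whether cell content plays a part was not tested.

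**Figure D2:**
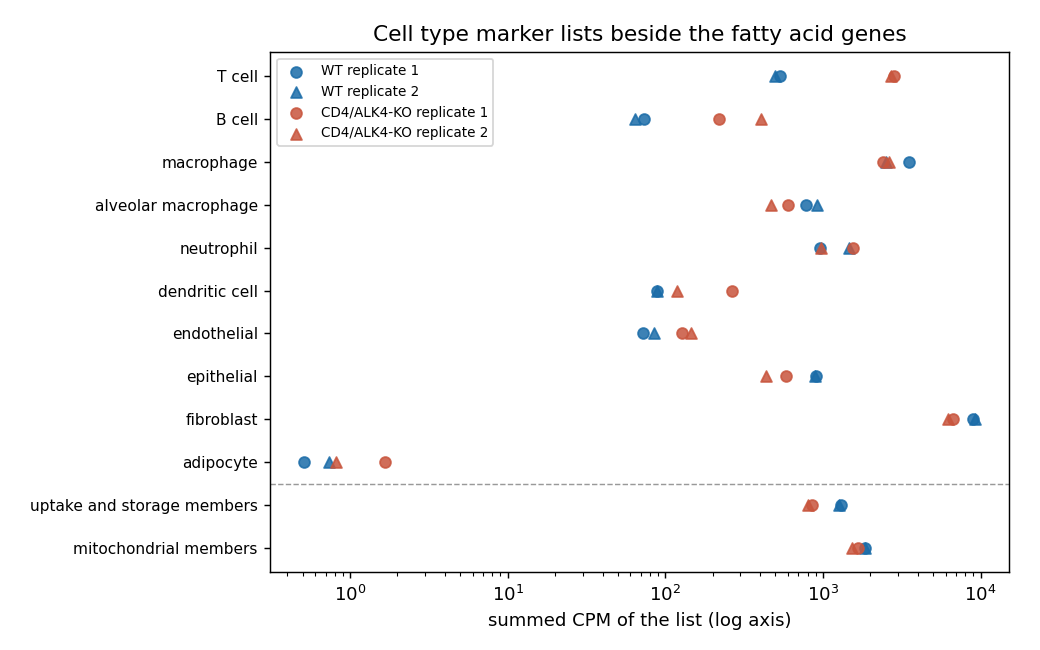
Summed CPM of each cell type marker list, of the 5 uptake and storage members and of the 19 mitochondrial members in each library, on a log axis. T cell markers sum to 498 to 534 CPM in WT and to 2704 to 2812 CPM in CD4/ALK4-KO, the uptake and storage members are lower in both CD4/ALK4-KO libraries, and adipocyte markers lie at or below 1.68 CPM.

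Transcription of many of these genes is controlled by PPAR and ERR nuclear receptors, which bind variants of the letters AGGTCA. The promoter windows of RefSeq (build GRCm38.p6) matched 28 of the 33 members with 29 promoters, and the 250 bases before each start were searched on both strands. The hexamer AGGTCA lay in 6 of 29 member promoters (20.7%) and in 4607 of 32851 promoters in all (14.0%). The members were *Acadm*, *Acadvl*, *Cd36*, *Cpt1a*, *Echs1* and *Plin2*. The longer PPAR form AGGTCANAGGTCA, which holds the hexamer at each end, was in none of the 29 and in 11 of all (0.0335%). The ERR form TCAAGGTCA, which holds it once, was in none of the 29 and in 127 of all (0.387%). The windows around the hexamer are shown for the 3 called members that hold it, with the hexamer in capitals, where TGACCT is the same hexamer read on the opposite strand. All are written 5′ to 3′ along the gene, which is on the minus strand in each case. The *Plin2* window is at chr4:86670245-86670304, upstream of the annotated gene and in no exon. The *Cd36* window is at chr5:17836087-17836146, inside the annotated span of *Cd36* and in no exon. The start that it precedes matched no annotated transcript of *Cd36*, unlike those of *Plin2* and *Echs1*. The *Echs1* window is at chr7:140116472-140116531, shares 5 bases with the first exon of *Echs1* and also touches the annotated span of *Paox*. A match to these letters is a description and does not show binding.
Plin2: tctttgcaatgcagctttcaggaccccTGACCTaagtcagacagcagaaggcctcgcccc
Cd36: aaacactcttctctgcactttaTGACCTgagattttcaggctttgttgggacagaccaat
Echs1: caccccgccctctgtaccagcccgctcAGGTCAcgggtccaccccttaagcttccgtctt

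Of the 4 long-chain acyl-CoA synthetases, which trap fatty acids as acyl-CoA, 1 fell and 3 did not pass. *Acsl3*, the isoform of the endoplasmic reticulum and lipid droplets, had 635 and 629 counts in WT and 313 and 284 in CD4/ALK4-KO. Its level was 46.4 ± 0.12 CPM in WT and 24.6 ± 2.33 CPM in CD4/ALK4-KO, for a log2 fold change of -0.91 (SE 0.23, adjusted p = 0.0038). The call was lost without either WT library, at adjusted p = 0.068 without WT replicate 1 and 0.058 without WT replicate 2.

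*Acsl4*, which prefers arachidonic acid, had the most counts of this group, with 4728 and 4874 in WT and 5119 and 3266 in CD4/ALK4-KO. Its level was 353 ± 10.8 CPM in WT and 347 ± 117 CPM in CD4/ALK4-KO, for a log2 fold change of -0.02 (SE 0.24, adjusted p = 0.96) in which the CD4/ALK4-KO libraries lay on either side of WT. *Acsl1* had 250 and 440 counts in WT and 459 and 380 in CD4/ALK4-KO (log2 fold change 0.45, SE 0.27, adjusted p = 0.21), and *Acsl5* had 2883 and 3042 in WT and 2430 and 2589 in CD4/ALK4-KO (log2 fold change -0.07, SE 0.21, adjusted p = 0.83). The *Acsl1* value rested on WT replicate 1, without which it was 0.084, whereas without WT replicate 2 it was 0.92.

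None of the 3 carnitine shuttle genes passed the test. *Cpt1a*, which makes acylcarnitine at the outer mitochondrial membrane and is the rate-controlling step of entry, had 1498 and 1338 counts in WT and 1636 and 1979 in CD4/ALK4-KO. Its level was 104 ± 7.35 CPM in WT and 149 ± 16.2 CPM in CD4/ALK4-KO, for a log2 fold change of 0.52 (SE 0.21, adjusted p = 0.064). The groups did not overlap, and the value passed with the Wald test of DESeq2 (adjusted p = 0.046) and was -1.66 with T cell receptor scaling. It was 0.65 (adjusted p = 0.0051) without CD4/ALK4-KO replicate 1, 0.40 (adjusted p = 0.12) without replicate 2, 0.58 (adjusted p = 0.29) without WT replicate 1 and 0.44 (adjusted p = 0.43) without WT replicate 2. *Cpt2*, the inner membrane partner, had a log2 fold change of -0.19 (SE 0.24, adjusted p = 0.58) and the carrier *Slc25a20* one of 0.06 (SE 0.22, adjusted p = 0.86), both with overlapping groups.

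Among the 5 acyl-CoA dehydrogenases, which start each turn on chains of different length, none passed. *Acadsb*, the enzyme of short branched chains, had the most counts, with 1528 and 1798 in WT and 1395 and 880 in CD4/ALK4-KO (log2 fold change -0.38, SE 0.23, adjusted p = 0.23). *Acadm*, for medium chains, had 1490 and 1536 counts in WT and 996 and 845 in CD4/ALK4-KO, or 111 ± 3.41 and 76.1 ± 10.8 CPM, with a log2 fold change of -0.55 (SE 0.21, adjusted p = 0.051). *Acadvl*, for very long chains, had 994 and 959 counts in WT and 1180 and 1190 in CD4/ALK4-KO, or 71.7 ± 1.16 and 97.8 ± 1.94 CPM, with a log2 fold change of 0.45 (SE 0.21, adjusted p = 0.11) that was -1.74 with T cell receptor scaling. *Acadm* and *Acadvl* thus lay on opposite sides of 0, each without overlap between the genotypes. *Acadm* passed in 8 of 14 alternatives, in some of them narrowly. These include T cell receptor scaling, where all 31 members were lower, and a replicate block with crossed numbers, chosen after seeing the data. With the replicate numbers as given as a block it did not pass (adjusted p = 0.17). Its value was -0.67 without CD4/ALK4-KO replicate 1, -0.41 without replicate 2, and -0.59 and -0.52 without WT replicates 1 and 2. *Acadsb* rested on CD4/ALK4-KO replicate 2, without which it was -0.07 (adjusted p = 0.84), whereas without replicate 1 it was -0.75 (adjusted p = 0.0028).

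The remaining dehydrogenases lay below 0, *Acadl* for long chains at -0.09 (SE 0.21, adjusted p = 0.78) and *Acads* for short chains at -0.43 (SE 0.26, adjusted p = 0.22). Ratios within a library do not depend on the scaling. Like the other count ratios given here, they reuse the same counts, were not among the planned comparisons and were not tested. The count ratio of *Acadvl* to *Acadm* was 0.67 and 0.62 in WT and 1.19 and 1.41 in CD4/ALK4-KO. For *Cpt1a* to *Acadm* it was 1.00 and 0.87 in WT and 1.64 and 2.34 in CD4/ALK4-KO, so that both CD4/ALK4-KO libraries had the higher ratio. These are ratios of counts, which also depend on transcript length, and they compare libraries, not the levels of the 2 genes.

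Of the 5 genes for the hydratase, dehydrogenase and thiolase steps, 1 fell. *Echs1*, the short-chain enoyl-CoA hydratase, had 2109 and 2113 counts in WT and 1328 and 1225 in CD4/ALK4-KO. Its level was 155 ± 1.63 CPM in WT and 105 ± 8.73 CPM in CD4/ALK4-KO, for a log2 fold change of -0.56 (SE 0.21, adjusted p = 0.044) that was no longer called without WT replicate 1, WT replicate 2 or CD4/ALK4-KO replicate 2.

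*Hadha* and *Hadhb* encode the subunits of the mitochondrial trifunctional protein, which acts on long chains. *Hadha*, with the most counts of this group, had 2429 and 2391 in WT and 2138 and 2216 in CD4/ALK4-KO, or 177 ± 0.35 and 180 ± 0.09 CPM, a log2 fold change of 0.02 (SE 0.21, adjusted p = 0.95) that was -0.05 with upper quartile and -2.17 with T cell receptor scaling. *Hadhb* stood at -0.05 (SE 0.21, adjusted p = 0.88), and the count ratio of *Hadha* to *Hadhb* was 1.83 to 2.22 over the 4 libraries. By contrast, the ratio of *Hadha* to *Echs1* was 1.13 and 1.15 in WT and 1.61 and 1.81 in CD4/ALK4-KO. The short-chain dehydrogenase *Hadh* (-0.38, SE 0.22, adjusted p = 0.18) and the thiolase *Acaa2* (-0.31, SE 0.21, adjusted p = 0.28) did not pass, and both had lower CPM in each CD4/ALK4-KO library than in either WT library. *Hadh* was -0.53 (adjusted p = 0.037) without CD4/ALK4-KO replicate 1, but -0.23 (adjusted p = 0.41) without replicate 2 and -0.24 (adjusted p = 0.69) without WT replicate 2.

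The 3 auxiliary enzymes bring double bonds of unsaturated chains into a form that can be oxidized. Each of the 3 had lower CPM in both CD4/ALK4-KO libraries than in either WT library, as had 34.0% of all genes tested, and 1 passed. *Decr1*, the 2,4-dienoyl-CoA reductase, had 1026 and 1043 counts in WT and 599 and 593 in CD4/ALK4-KO. Its level was 76.0 ± 1.58 CPM in WT and 49.2 ± 1.62 CPM in CD4/ALK4-KO, for a log2 fold change of -0.63 (SE 0.21, adjusted p = 0.027) that was lost without either WT library. The isomerase *Eci2*, with the most counts of this group, had 1303 and 1281 counts in WT and 1037 and 835 in CD4/ALK4-KO (log2 fold change -0.29, SE 0.22, adjusted p = 0.31). *Eci1* stood at -0.50 (SE 0.23, adjusted p = 0.11). It was -0.66 without CD4/ALK4-KO replicate 2, -0.32 without replicate 1, and -0.56 and -0.44 without WT replicates 1 and 2. Only the first of these fits called it.

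The electron transfer flavoprotein subunits *Etfa* and *Etfb* and its oxidoreductase *Etfdh*, which pass electrons from the dehydrogenases to ubiquinone, did not pass, at -0.48 (SE 0.21, adjusted p = 0.084), -0.49 (SE 0.21, adjusted p = 0.082) and -0.35 (SE 0.21, adjusted p = 0.22). *Etfa*, with the most counts of the group, had 1977 and 2048 in WT and 1340 and 1234 in CD4/ALK4-KO. All 3 were lower in each CD4/ALK4-KO library than in either WT library, as were 34.0% of all genes tested. Both flavoprotein subunits passed with upper quartile scaling. As each library was left out, the log2 fold change ran from -0.53 to -0.40 for *Etfa* and from -0.61 to -0.38 for *Etfb*. In these fits *Etfa* was called only without CD4/ALK4-KO replicate 1 and *Etfb* only without CD4/ALK4-KO replicate 2, and neither without a WT library. Over the 19 mitochondrial members, 2 fell (10.5%) and none rose, against 15.4% and 17.4% of all genes tested. Of the 19, 15 had a log2 fold change below 0. The median over the 19 was -0.35, with a range from -0.63 to 0.52.

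**Figure D3:**
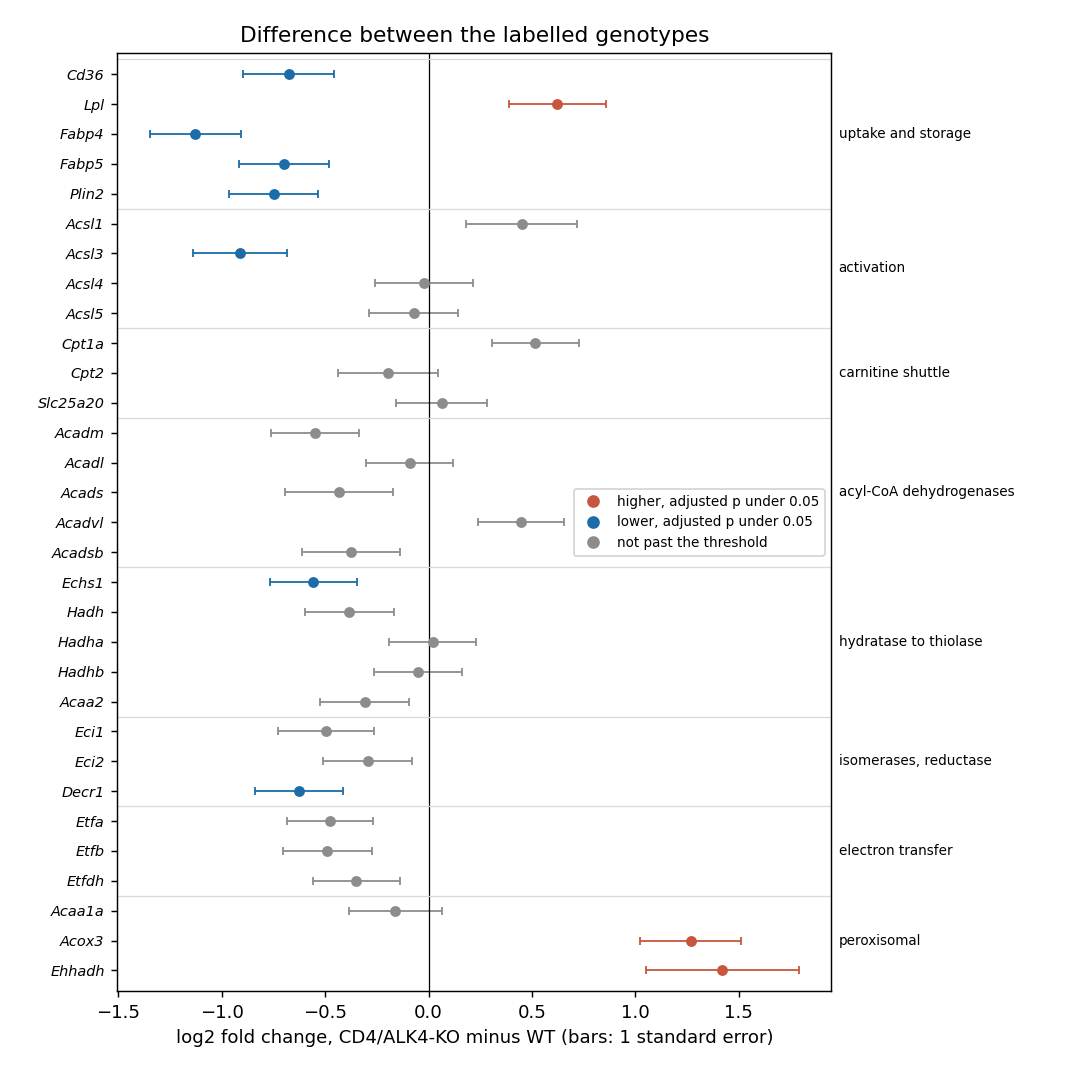
Log2 fold change (CD4/ALK4-KO minus WT) of the 31 tested members with its standard error, grouped by role, in red for the 3 higher and blue for the 7 lower members with an adjusted p under 0.05 and in grey for the others. Values run from -1.13 for *Fabp4* to 1.42 for *Ehhadh*, and the values above 0 turned negative with T cell receptor scaling.

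Of the 3 peroxisomal genes, 2 rose. *Acox3*, an acyl-CoA oxidase that acts on branched chains, had 257 and 252 counts in WT and 451 and 643 in CD4/ALK4-KO. Its level was 18.7 ± 0.09 CPM in WT and 45.0 ± 10.03 CPM in CD4/ALK4-KO, a 2.41-fold difference with a log2 fold change of 1.27 (SE 0.24, adjusted p = 0.00037) that was -0.91 with T cell receptor scaling. Both CD4/ALK4-KO libraries lay above both WT libraries, and the call held without any one library.

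*Ehhadh*, the peroxisomal bifunctional enzyme and a classical PPARα target in liver, had 68 and 56 counts in WT and 202 and 92 in CD4/ALK4-KO. Its level was 4.55 ± 0.58 CPM in WT and 12.2 ± 6.73 CPM in CD4/ALK4-KO, for a log2 fold change of 1.42 (SE 0.37, adjusted p = 0.0053) that was -0.79 with T cell receptor scaling. The CD4/ALK4-KO libraries differed widely, and without replicate 1 of that group the log2 fold change was 0.74 (adjusted p = 0.13). The call was also lost without WT replicate 2, at adjusted p = 0.052. The thiolase *Acaa1a*, with 534 and 500 counts in WT and 382 and 442 in CD4/ALK4-KO, stood at -0.16 (SE 0.22, adjusted p = 0.63).

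The regulators were close to the floor of detection. *Ppara*, the fatty acid receptor that drives many of these genes in liver, had 5 and 5 counts in WT and 2 and 5 in CD4/ALK4-KO, and *Ppargc1a*, the coactivator of mitochondrial biogenesis, had 3 and 4 in WT and 15 and 7 in CD4/ALK4-KO. Neither had enough counts for the test. Fitted without a filter, their log2 fold changes were -0.34 (SE 1.28, adjusted p = 0.88) and 1.79 (SE 1.05, adjusted p = 0.23), so a difference was not detectable at this depth.

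Levels of different genes were compared as counts per kilobase of annotated exon, scaled to the same total in every library. The exon length joined the exons of all annotated transcripts of a gene, which can exceed the length of the transcripts present. For *Fabp4* it was 4489 bases, the whole span of the gene. Levels and ranks between genes on this scale thus depend on the annotation. On this scale *Plin2* ranked first of the 33 members in both genotypes, at 532 ± 87.1 in WT and 371 ± 9.97 in CD4/ALK4-KO. The next members in WT were *Cd36* at 263 ± 20.1, *Etfb* at 249, *Acaa2* at 243 and *Etfa* at 236, and only *Cd36* and *Etfa* of these 4 did not overlap between the WT libraries, with *Cd36* higher. In CD4/ALK4-KO *Cd36* ranked 6, at 193 ± 24.3. *Cpt1a* ranked 21 in WT, at 39.8, and 12 in CD4/ALK4-KO, at 66.8. Near the bottom lay *Acsl1*, *Acox3* and *Ehhadh*, at 7.08, 4.74 and 4.46 in WT and 11.3, 13.4 and 14.0 in CD4/ALK4-KO, and last *Ppara* and *Ppargc1a*, both under 1.

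Reads of some members could not be told from those of other genes. The share of the 75-base stretches of a member's transcripts that also occur in transcripts of another gene was at most 4.55% for the 10 called members, the value of *Acox3*. It was over 10% for 4 members that did not pass, *Etfb* (39.6%, shared with *Gm45233*), *Acadvl* (19.5%, shared with *Dvl2*), *Hadhb* (16.7%) and *Acaa1a* (12.6%, shared with *Acaa1b* and *Myd88*), and the values of these are uncertain to that extent. *Acox3* overlaps the antisense gene *4931431C16Rik* and *Echs1* the antisense gene *Paox*. The library kit does not mark strand, so the reads of these overlaps cannot be told apart. *Acsl3* overlaps *Utp14b* on the same strand, where the reads cannot be told apart either.

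Other genes of the same pathway, 98 in the files and 80 tested, showed 14 lower (17.5%) and 6 higher (7.5%), with a median log2 fold change of -0.18. By the rule for naming, the falls were the following. *Acsl6*, another acyl-CoA synthetase, had 197 and 202 counts in WT and 48 and 94 in CD4/ALK4-KO (log2 fold change -1.33, adjusted p = 0.0036). *Cpt1c*, the CPT1 isoform of brain, had 157 and 159 counts in WT and 30 and 84 in CD4/ALK4-KO (-1.31, adjusted p = 0.010). *Ppard*, the receptor PPARδ, had 291 and 255 counts in WT and 70 and 145 in CD4/ALK4-KO (-1.18, adjusted p = 0.0057). *Mcee* and *Mmut* act in succession on methylmalonyl-CoA from odd-chain fatty acids. *Mcee* had 244 and 218 counts in WT and 57 and 129 in CD4/ALK4-KO (-1.15, adjusted p = 0.0095), and *Mmut* had 1368 and 1590 in WT and 685 and 611 in CD4/ALK4-KO (-1.02, adjusted p = 0.00097). The call of *Ppard* was lost without WT replicate 1 (adjusted p = 0.061), that of *Cpt1c* without CD4/ALK4-KO replicate 1 (-0.74, adjusted p = 0.078), and that of *Mcee* without either of these (adjusted p = 0.079 and 0.073).

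The other 9 that fell were *Angptl4*, *Gpihbp1* and *Vldlr*, which act on lipoproteins with LPL, the lipid droplet proteins *Abhd5* and *Hilpda*, the transporter *Slc27a1*, the acyl-CoA binding protein *Dbi*, *Hsd17b10* and *Pecr*. Their log2 fold changes ran from -0.58 for *Hsd17b10* to -1.67 for *Gpihbp1*, which had 34 and 34 counts in WT and 4 and 15 in CD4/ALK4-KO (adjusted p = 0.048). On the TMM scale *Lpl* thus rose while *Angptl4*, its inhibitor, *Gpihbp1* and *Vldlr* all fell. The rise of *Lpl* rested on WT replicate 1, and the activity of LPL was not measured.

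The rises were led by *Bdh1*, the mitochondrial 3-hydroxybutyrate dehydrogenase of ketone metabolism, with 46 and 54 counts in WT and 213 and 223 in CD4/ALK4-KO (log2 fold change 2.29, adjusted p = 8.3e-06). It was 0.10 with T cell receptor scaling and no longer called. *Acsbg1*, an acyl-CoA synthetase, had 158 and 77 counts in WT and 377 and 372 in CD4/ALK4-KO (1.84, adjusted p = 7.7e-05, and -0.33 with T cell receptor scaling). *Ncor1*, a corepressor of nuclear receptors, had 1146 and 1370 counts in WT and 2898 and 3465 in CD4/ALK4-KO (1.50, adjusted p = 1.9e-05, and -0.68 with that scaling). *Dgat1*, which makes triglycerides, stood at 0.67 (adjusted p = 0.033) and the mitochondrial carrier *Ucp2* at 0.64 (adjusted p = 0.027), and both were below 0 with that scaling. Neither was called without either WT library, nor *Dgat1* without CD4/ALK4-KO replicate 2 (adjusted p = 0.096). The sixth, *Slc27a6*, rose by 2.40 (adjusted p = 0.0010) on the TMM scale and had under 100 counts on average.

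**Figure D4:**
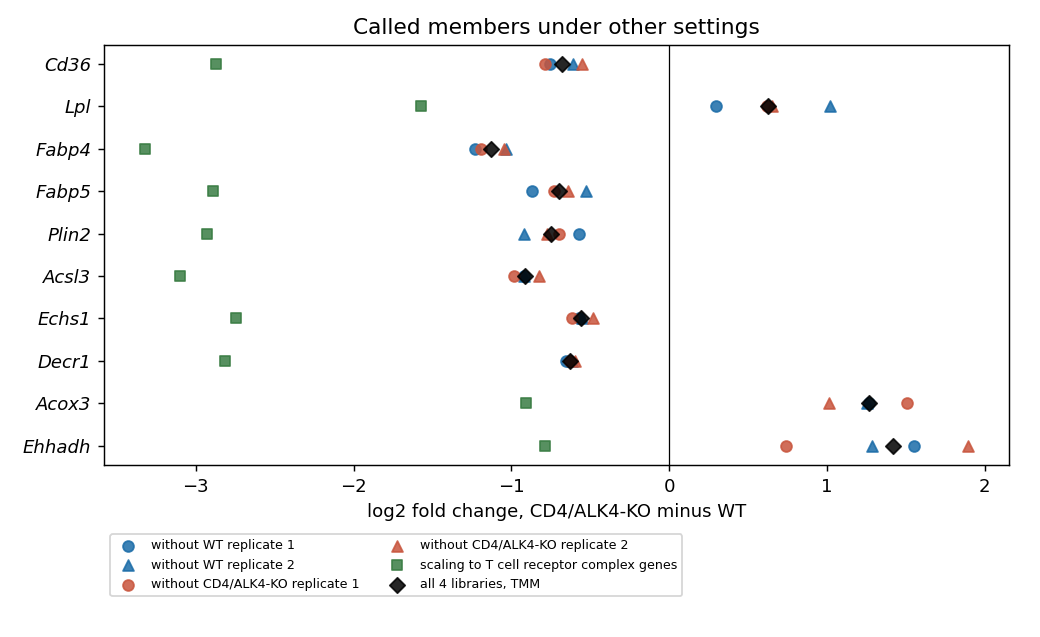
Log2 fold change (CD4/ALK4-KO minus WT) of the 10 called members with all 4 libraries on the TMM scale, with each library left out in turn, and with T cell receptor scaling. Points of *Fabp4* lie close together apart from the T cell receptor scale, *Lpl* runs from 0.30 to 1.02 and *Ehhadh* from 0.74 to 1.89 as single libraries are left out, and with T cell receptor scaling all 10 lie below 0.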

How the data were processed

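RNA-Seq counts of 4 libraries were used, grouped as WT (2) and CD4/ALK4-KO (2) from the sample labels. Single-end reads of 75 bp had been aligned by the authors with HISAT2 (genome mm10) and assigned to genes by htseq-count, mode intersection-nonempty, and the deposited values are unnormalized counts. The annotation, the strand option and tool versions are not given in the sources used here, and the library kit does not mark strand.

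From the counts, filterByExpr of edgeR 4.0.16 (R 4.3.3, minimum count 10) kept 13919 genes, TMM gave the scaling, and genotype, the single term of a robust quasi-likelihood fit, was tested over all of them with Benjamini-Hochberg adjustment. Calls are an adjusted p under 0.05. SE is the log2 fold change over the root of F, and CPM use TMM-adjusted totals. DESeq2 1.42.0, the tool of the study, was an alternative. Gene positions and exon lengths are those of GENCODE M21 (GRCm38), which matched 24321 symbols.

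All members are described, in full those called and the member with the most counts in each role. Of other pathway genes, the 5 largest rises and falls among those called with a mean of at least 100 counts are named, and the remaining ones were named after their values were seen. Members and lists were chosen with earlier results of these data known. Nothing states that libraries of a group came from separate animals, so p-values measure the spread between these libraries, which may be technical. Replicates differed beyond sampling noise (chi-square per degree of freedom 13.3 in WT and 24 in CD4/ALK4-KO). The alternatives tried were upper quartile scaling, size factors of DESeq2, T cell receptor scaling (4 of 7 listed genes were found), other filters and tests, leaving out 122 immunoglobulin, haemoglobin, mitochondrial and ribosomal protein genes, a replicate block and each library left out. Protein sequences were not used here.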

Additional observations from a re-analysis of the deposited data

How the results depend on the processing

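Only 2 libraries per genotype limit every value, and with 1 left out the lone library of its group was assumed to vary like the others. As each library was left out, 1 to 11 members were lower and 2 to 4 higher, 5 to 21 other pathway genes lower and 4 to 12 higher, and 754 to 2618 of all genes lower and 1103 to 2923 higher. In those fits the log2 fold change ran from -0.38 to 0.28 for *Acsl4*, which was 0.00063 without WT replicate 2, from -0.097 to 0.23 for *Slc25a20*, which was -0.048 without CD4/ALK4-KO replicate 2, and from -0.17 to 0.075 for *Hadhb*. T cell receptor scaling gave 31 members lower and 0 higher, 76 other pathway genes lower and 0 higher, and 12803 of all genes lower and 48 higher, since it moves every gene by the rise of 4 genes. On it the log2 fold changes were -1.57 for *Lpl*, -1.76 for *Acsl1*, -1.66 for *Cpt1a*, -2.11 for *Slc25a20*, -1.74 for *Acadvl*, -2.17 for *Hadha*, -0.91 for *Acox3*, -0.79 for *Ehhadh*, -0.33 for *Acsbg1*, -0.68 for *Ncor1*, -1.51 for *Dgat1* and -1.54 for *Ucp2*. With upper quartile scaling *Slc25a20* was at -0.0050 and *Hadha* at -0.047, and *Lpl* was not called with that scaling (adjusted p = 0.066) or with DESeq2's Wald test (adjusted p = 0.054). Relative to the median of all genes, the members' median was -0.34 to -0.16 over 14 alternatives, of which those that change only the scaling move all genes alike. With the replicate number as a block, 2 members and 9 other pathway genes were lower. Among the named genes that had a call, 8 lost it: the members *Cd36*, *Lpl*, *Fabp5*, *Plin2*, *Echs1* and *Decr1*, and *Dgat1* and *Ucp2*. The numbers were not taken as pairs, since the labels give them no shared source and the replicate differences of the genotypes correlated at -0.24 across genes. With the numbers crossed, a pairing chosen after seeing the data, 13 members were lower and 6 higher. The cause of these changes was not tested.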

Other observations

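A grouping of the mitochondrial members made after the values were seen is given as a description, without a test. The 6 membrane-bound proteins of long-chain oxidation (*Cpt1a*, *Cpt2*, *Slc25a20*, *Acadvl*, *Hadha* and *Hadhb*) had a median log2 fold change of 0.042, and none was called. The 12 soluble matrix enzymes and flavoprotein subunits were *Acadm*, *Acadl*, *Acads*, *Acadsb*, *Echs1*, *Hadh*, *Acaa2*, *Eci1*, *Eci2*, *Decr1*, *Etfa* and *Etfb*. Their median was -0.45, all 12 were below 0, and 2 were called lower (16.7%), against 15.4% of all genes tested. The summed level of the membrane-bound proteins was 537 and 523 CPM in WT and 596 and 601 CPM in CD4/ALK4-KO, and that of the soluble enzymes was 1234 and 1238 CPM in WT and 1000 and 861 CPM in CD4/ALK4-KO. *Etfdh*, the remaining mitochondrial member, is in neither group: it too is a protein of the inner membrane, and at -0.35, with lower CPM in both CD4/ALK4-KO libraries, it does not follow the other membrane proteins. *Acadvl* and *Hadhb* are among the members whose reads are shared with other genes.

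The count ratio of *Plin2*, the lipid droplet coat, to *Cpt1a*, the mitochondrial entry enzyme, was 6.54 and 5.70 in WT and 2.73 and 2.41 in CD4/ALK4-KO. The pair was chosen after the values were seen.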
